A study of Homo sapiens with 50 samples.

Results

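In all, 10 genes of the heat shock response, chosen by name from the 57905 genes of the deposited tables, were followed through differentiation of H1 cells, an established human embryonic stem cell line, under acid, base and metabolic treatments. The 10 genes were HSPA1A, HSPA1B, HSPA8, HSPH1, HSP90AA1, HSP90AB1, DNAJB1, DNAJA1, HSPD1 and HSPE1, and each symbol had 1 row in both tables. The group is labelled cytosolic, which 8 of the genes are. The products of HSPD1 and HSPE1 work in mitochondria, and these genes are also described as a pair below. Counts, shares and medians over the 10 genes include both.

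RNA was sequenced from 25 groups with 2 libraries each, 50 libraries in all. On days 3, 5, 7 and 11 there were 6 treatments: IWP2 with NaHCO3 and 2-DG, IWP2 with NaHCO3, IWP2 alone, NaHCO3 alone, HCl alone, and a differentiation control. Undifferentiated cells stood for day 0. HCl is an acid and NaHCO3 a base, IWP2 stops cells from secreting WNT proteins, and 2-DG is an analogue of glucose that slows glycolysis and disturbs the glycosylation of proteins. All libraries carry the labels H1, ESC and WT, and all are labelled with cardiac differentiation, the undifferentiated ones included. The labels give no dose and no time of addition. They do not say that the libraries of a group came from separate cultures, so p-values measure only the spread between those libraries, which may be technical.

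When proteins unfold, the transcription factor HSF1 is released from its chaperones, binds heat shock elements in DNA and switches on chaperone genes. HSP70 proteins (HSPA1A, HSPA1B, HSPA8) bind unfolded stretches of protein in a cycle driven by ATP, which J-domain proteins (DNAJB1, DNAJA1) start and HSPH1 resets by exchanging the nucleotide. HSP90 proteins (HSP90AA1, HSP90AB1) hold client kinases and receptors close to their mature fold. HSPD1 and HSPE1 form the folding chamber of the mitochondrial matrix and its lid. HSPA1A and HSPA1B are classic heat-inducible genes, while HSPA8 and HSP90AB1 are made in large amounts without stress.

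A heat shock element is built from GAA units in alternating orientation, each pair being written GAANNTTC or TTCNNGAA. The 250 bases upstream of each start site in RefSeq (GRCh38.p14) were searched on both strands for these motifs and for the longer forms GAANNTTCNNGAA and TTCNNGAANNTTC, which contain the shorter ones. All 10 genes were matched, in 16 windows. A motif of 2 units was present for 8 of the 10 genes, against 13.96% of 27305 gene symbols, and a motif of 3 units for 4 of them (HSPA8, HSP90AA1, HSP90AB1, HSPD1), against 0.557%. No motif was found in these windows for HSPH1 and HSPE1. The windows of HSPA1A (chr6:31815293-31815542, plus strand) and HSPA1B (chr6:31827488-31827737, plus strand) are printed whole, because these genes had the largest changes of the treatment comparisons and because their likeness bears on how reads are assigned. Capitals mark the motif, which begins 106 and 105 bases upstream of the start.
HSPA1A: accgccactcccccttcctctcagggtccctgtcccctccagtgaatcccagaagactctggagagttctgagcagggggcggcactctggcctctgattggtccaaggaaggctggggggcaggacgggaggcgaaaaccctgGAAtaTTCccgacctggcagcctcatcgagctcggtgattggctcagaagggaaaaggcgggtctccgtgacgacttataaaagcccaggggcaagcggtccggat
HSPA1B: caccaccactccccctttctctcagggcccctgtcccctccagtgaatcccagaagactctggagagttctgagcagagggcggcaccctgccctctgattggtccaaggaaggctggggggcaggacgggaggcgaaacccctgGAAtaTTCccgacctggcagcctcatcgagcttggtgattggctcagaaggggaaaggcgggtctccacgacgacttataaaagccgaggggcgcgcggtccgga
Aligned, these windows were identical in 235 of 251 columns (93.6%), with 2 gap columns.

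Shorter stretches show the motifs of the other genes, each with up to 12 bases on either side. They are the motif of 3 units of HSPA8 farthest upstream (chr11:123062342-123062378, minus strand), the one of HSP90AA1 (chr14:102087108-102087144, minus strand), the one of HSP90AB1 nearest to the start (chr6:44247819-44247855, plus strand), 1 of HSPD1 (chr2:197500056-197500090, minus strand), and motifs of DNAJB1 (chr19:14518455-14518486, minus strand) and DNAJA1 (chr9:33025063-33025094, plus strand).
HSPA8: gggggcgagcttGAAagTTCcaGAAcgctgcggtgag
HSP90AA1: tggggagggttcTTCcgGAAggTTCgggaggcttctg
HSP90AB1: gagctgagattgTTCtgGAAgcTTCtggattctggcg
HSPD1: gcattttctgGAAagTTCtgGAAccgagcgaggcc
DNAJB1: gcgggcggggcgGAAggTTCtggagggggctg
DNAJA1: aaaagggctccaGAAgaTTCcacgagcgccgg
Such a match describes the letters of a window and is not a measured binding site.

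Library totals ran from 14794134 to 22796553 counts on days 3 and 5 and from 14090004 to 20445875 in the other table, and all 10 genes passed the filter on low values in both. Levels are deposited FPKM, counts scaled by gene length and library total, which allow genes to be compared per length. Changes are log2 ratios of counts scaled by TMM, so they can differ from a ratio of FPKM. Scaling by library totals instead moved the median log2 fold change of all genes most for NaHCO3 on day 11, by -0.2. A gene was called changed at an adjusted p under 0.05 with at least a 2-fold change, and "rose" and "fell" are used of called genes alone. The libraries with 2-DG of day 3 agreed least, with a chi-square per degree of freedom of 110 between them against a median of 4.35 over the 25 groups. In every group, fewer cells of a type and less RNA per cell cannot be told apart.

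HSP90AB1 was the most abundant of the 10 transcripts, at 428 to 1416 FPKM over the 50 libraries (median 711). HSPA8 (median 227 FPKM) and HSP90AA1 (median 223 FPKM) followed, then HSPD1 at 133, DNAJA1 at 92.5 and HSPE1 at 58.9 FPKM. DNAJB1 (median 25 FPKM) and HSPH1 (median 22.4 FPKM) were lower, and the inducible HSPA1A (median 9.94 FPKM) and HSPA1B (median 7.04 FPKM) were lowest. HSPE1 spanned the widest range, 8.13-fold from 19.2 to 156 FPKM, and DNAJB1 the narrowest, 1.85-fold from 17.3 to 32.0 FPKM. TECR overlaps most of the gene model of DNAJB1 on the opposite strand. Its mean was 10.4 FPKM on days 3 and 5 and 7.67 FPKM on the other days. The use of strand in counting is not given, so levels of DNAJB1 may include reads of TECR. Together the 10 genes took 0.385% ± 0.00610 of all counts under NaHCO3 on day 11, the lowest group mean, and 1.12% ± 0.0276 in undifferentiated cells, the highest (SD, n = 2 each).

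**Figure D1:**
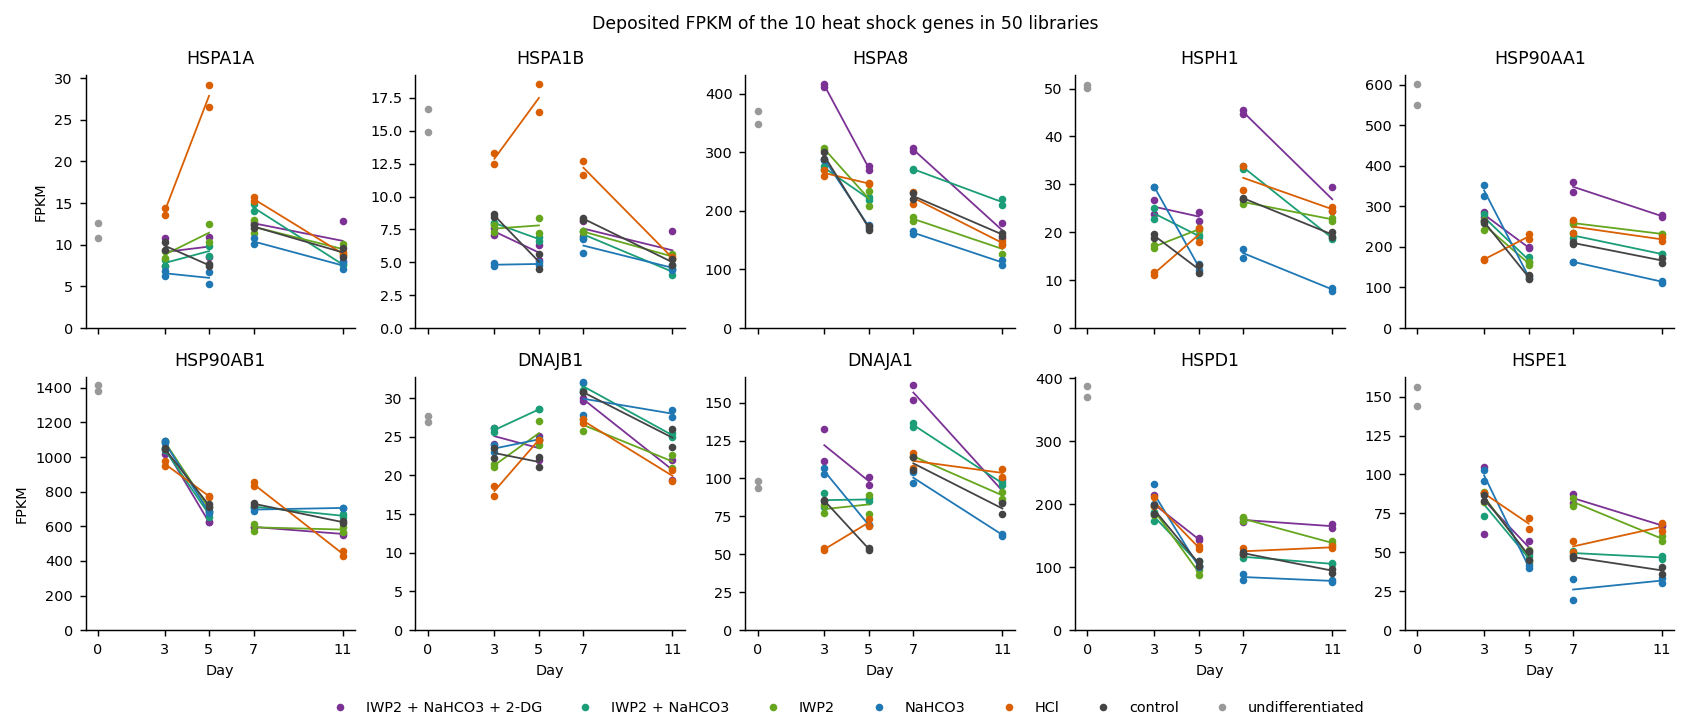
FPKM of each of the 10 genes (vertical axis, from 0) by day (horizontal axis), with 1 point per library and lines joining group means within a table, coloured by treatment. HSPA1A and HSPA1B stand highest under HCl on day 5, at 26.5 to 29.2 and 16.5 to 18.6 FPKM, while HSP90AA1, HSP90AB1, HSPH1, HSPD1 and HSPE1 are highest in undifferentiated cells.

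The inducible HSP70 genes rose under HCl on day 5. HSPA1A (GRCh37 chr6:31783291-31785723, plus strand) had 29.2 and 26.5 FPKM under HCl, against 7.67 and 7.41 FPKM in the control. HSPA1B (chr6:31795512-31798031, plus strand) had 18.6 and 16.5 FPKM under HCl, against 4.47 and 5.61 FPKM in the control. For HSPA1A the HCl libraries were the highest of all 50, for HSPA1B 1 of them was, and the groups did not overlap for either gene. HSPA1A rose 3.80-fold (log2 fold change 1.92 ± 0.18 SE, adjusted p = 4.13e-08) and HSPA1B 3.57-fold (1.84 ± 0.13 SE, adjusted p = 8.68e-10). These were the called members, 2 of 10 upward, while 9.84% of the 17286 genes tested were called upward. The genes are near-identical and the authors' counting could divide their reads, so the split between them is uncertain. With both summed to 1 row, the sum was also called upward.

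The size of this difference depended on the day. On day 3, HSPA1A had 13.5 and 14.4 FPKM under HCl, against 9.41 and 10.4 FPKM in the control, and HSPA1B had 13.3 and 12.5 FPKM under HCl, against 8.69 and 8.41 FPKM in the control. Both stood above the control without reaching 2-fold (log2 fold changes of 0.58 ± 0.18 and 0.67 ± 0.13 SE). On day 7 the log2 fold changes were 0.40 ± 0.12 for HSPA1A and 0.60 ± 0.13 SE for HSPA1B. On day 11 they were 0.06 (95% interval -0.21 to 0.33) and 0.17 (-0.12 to 0.47). The difference between day 5 and day 3 itself passed the test, by 1.34 ± 0.25 for HSPA1A (adjusted p = 0.000407) and 1.16 ± 0.18 SE for HSPA1B (adjusted p = 6.5e-05).

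**Figure D2:**
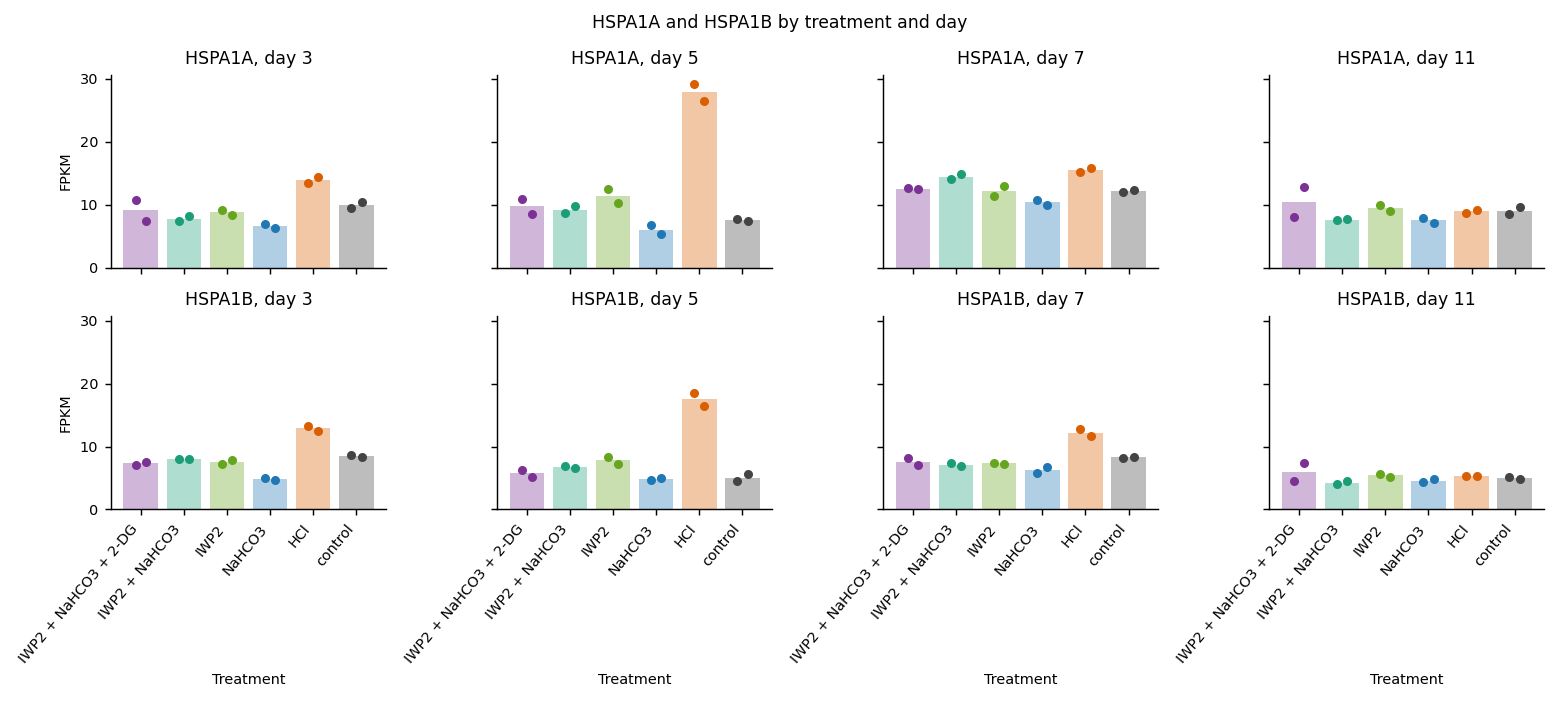
FPKM of HSPA1A (upper row) and HSPA1B (lower row) by treatment on each day, with bars for the mean of 2 libraries and points for the libraries. On day 5 the HCl bars stand above every other treatment, and on day 11 the HCl libraries, at 8.77 and 9.10 FPKM for HSPA1A, lie among the control libraries at 8.53 and 9.63 FPKM.

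Other members turned from lower to higher between these days. HSPH1, the nucleotide exchange factor, had 11.7 and 11.1 FPKM under HCl on day 3, against 18.9 and 19.7 FPKM in the control. On day 5 it had 18.0 and 21.0 FPKM under HCl, against 11.5 and 13.1 FPKM in the control. The libraries of the 2 groups did not overlap on either day, and the order of the groups was opposite. HSP90AA1, the stress-responsive HSP90 gene, had 171 and 168 FPKM under HCl on day 3, against 264 and 259 FPKM in the control, and 220 and 231 FPKM under HCl on day 5, against 120 and 131 FPKM in the control. DNAJA1, a J-domain co-chaperone of HSPA8, had 52.6 and 54.0 FPKM under HCl on day 3, against 85.8 and 85.0 FPKM in the control, and 69.0 and 73.0 FPKM under HCl on day 5, against 52.8 and 54.3 FPKM in the control. For these genes the control level itself was lower on day 5 than on day 3, while the HCl level was higher. The effect of HCl on day 5 minus that on day 3 was 1.43 ± 0.14 for HSP90AA1 (adjusted p = 2.59e-07), 1.38 ± 0.14 for HSPH1 (adjusted p = 2.23e-07) and 1.04 ± 0.16 SE for DNAJA1 (adjusted p = 5.03e-05). With HSPA1A and HSPA1B, 5 of 10 members were called upward in this difference of effects, against 8.35% of all genes tested.

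On day 5 all 10 members had a positive log2 fold change under HCl, from 0.14 to 1.92 with a median of 0.56, against a median of -0.02 over all genes. The adjusted p alone was under 0.05 for 8 of them, upward, against 20.7% of all genes. HSP90AA1 was 0.89 ± 0.10 higher, HSPH1 0.70 ± 0.10, HSPA8 0.57 ± 0.10 and HSPE1 0.55 ± 0.19 SE on the log2 scale. HSP90AB1 (0.14, 95% interval -0.06 to 0.34) and DNAJB1 (0.22, 0.03 to 0.41) did not pass. On day 3, by contrast, 2 members were higher at an adjusted p under 0.05 (15.8% of all genes were) and 4 were lower (14.2% were). The lower ones were HSPH1 at -0.67 ± 0.10, DNAJA1 at -0.60 ± 0.11, HSP90AA1 at -0.55 ± 0.10 and DNAJB1 at -0.27 ± 0.09 SE.

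Among the other heat-inducible genes listed for comparison, HSPB1 and DNAJA4 rose under HCl on day 5, 2 of the 9 tested without HSPA6, against 9.84% of all genes called upward. The median log2 fold change was -0.02 over these 9 and 0.15 with HSPA6. HSPA6, an HSP70 gene of human cells known for being nearly silent without stress, had 68 and 80 counts under HCl, against 0 counts in both control libraries. With each control library set to a floor of 3 counts, HSPA6 was at least 27.3-fold higher. HSPA6 reached the filter on low values through the HCl libraries of day 5 alone, and in each other library of the series it had at most 5 counts. HSPB1, a small heat shock protein, stood at 221 ± 10.2 FPKM under HCl and 52.3 ± 1.01 FPKM in the control, and DNAJA4, a J-domain protein, at 2.54 ± 0.134 FPKM under HCl and 1.01 ± 0.198 FPKM in the control (SD, n = 2 each). BAG3, a co-chaperone and HSF1 target, was lower under HCl, by -0.53 ± 0.12 SE on day 5 and by -1.14 ± 0.12 SE on day 3, where it was called (adjusted p = 1.02e-06). Of 18 co-chaperones of HSP70 and HSP90, 2 rose on day 5, a share near the 9.84% of all genes. FKBP5, which binds HSP90, had a log2 fold change of 1.73 ± 0.16 SE, and BAG2, which regulates HSP70, 1.10 ± 0.15 SE. HSF1 itself was 0.41 ± 0.11 and HSF2 -0.07 ± 0.10 SE.

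The cultures compared differed in cell-type markers. On day 3, 8 pluripotency markers summed to 774 ± 83.6 FPKM under HCl and 474 ± 44.5 FPKM in the control, and 8 cardiomyocyte markers to 25.1 ± 5.18 FPKM under HCl and 7.89 ± 0.658 FPKM in the control. Endothelial markers (6 genes) gave 55.5 ± 1.2 FPKM under HCl and 81.0 ± 9.28 FPKM in the control on that day, and fibroblast markers (6 genes) 42.8 ± 1.05 FPKM under HCl and 58.6 ± 0.948 FPKM in the control. The sums for mesendoderm markers were 266 ± 11.2 FPKM under HCl and 256 ± 14.0 FPKM in the control, and for liver and foregut markers 87.3 ± 4.48 FPKM under HCl and 78.2 ± 13.8 FPKM in the control. Markers listed at 0 on day 3 were AFP in all 4 libraries, TTR in 1 HCl library and both control libraries, MYH7 in 1 library of each group, ERG and POSTN in both HCl libraries, LUM in 1 HCl library, and CDH5 and DCN in 1 control library each. On day 5 the pluripotency markers summed to 442 ± 0.0780 FPKM under HCl and 327 ± 16.4 FPKM in the control. Over the 6 mesendoderm markers the sums were 73.2 ± 0.304 FPKM under HCl and 10.0 ± 0.0920 FPKM in the control. Fibroblast markers gave 83.0 ± 2.65 FPKM under HCl and 921 ± 88.9 FPKM in the control, and liver and foregut markers (8 genes) 32.5 ± 2.07 FPKM under HCl and 333 ± 34.5 FPKM in the control. Cardiomyocyte markers gave 334 ± 8.36 FPKM under HCl and 519 ± 2.52 FPKM in the control, and endothelial markers 48.3 ± 1.43 FPKM under HCl and 113 ± 1.69 FPKM in the control (SD, n = 2 each, on both days). On that day NANOG was listed at 0 in 1 control library and ERG, an endothelial marker, in 1 HCl library. The part of these differences in the chaperone levels was not tested.

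HSPH1, the exchange factor of HSP70, fell under NaHCO3 on day 11. HSPH1 (GRCh37 chr13:31710762-31736525, minus strand) had 7.76 and 8.38 FPKM under NaHCO3, against 19.0 and 20.1 FPKM in the control. The NaHCO3 libraries were the lowest of all 50 and far from the control. HSPH1 fell 2.11-fold (log2 fold change -1.08 ± 0.09 SE, adjusted p = 4.7e-12), the 1 of 10 members called, with 10.2% of 18451 genes called downward. On day 7 it was lower by less than 2-fold (-0.67 ± 0.08 SE), with 16.6 and 14.7 FPKM under NaHCO3, against 27.0 and 27.2 FPKM in the control. On day 3 the order was opposite, with 29.5 and 29.6 FPKM under NaHCO3, against 18.9 and 19.7 FPKM in the control (0.67 ± 0.10 SE, adjusted p = 6.99e-05), and on day 5 the groups overlapped, with 13.4 and 12.2 FPKM under NaHCO3, against 11.5 and 13.1 FPKM in the control.

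HSPA1B was lower under NaHCO3 on day 3, with 4.94 and 4.69 FPKM, against 8.69 and 8.41 FPKM in the control (-0.77 ± 0.13 SE, adjusted p = 0.000568). HSPA1A had 6.90 and 6.25 FPKM under NaHCO3, against 9.41 and 10.4 FPKM in the control (-0.53, 95% interval -0.92 to -0.15, adjusted p = 0.0654). Both genes thus stood above the control with acid and below it with base on day 3, but the HCl and NaHCO3 comparisons share the control libraries. Of the co-chaperones, BAG2 rose under NaHCO3, by 2.79 ± 0.15 on day 5, 2.48 ± 0.10 on day 7 and 1.82 ± 0.10 SE on day 11. BAG3 had 52.1 ± 0.403 FPKM under NaHCO3 and 20.3 ± 1.38 FPKM in the control on day 3 (SD, n = 2 each), a rise of 1.41 ± 0.12 SE.

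The HSP90 pair moved in opposite directions under HCl and under NaHCO3 on day 11. HSP90AA1 (GRCh37 chr14:102547075-102606036, minus strand) had 224 and 213 FPKM under HCl on day 11, against 159 and 174 FPKM in the control, while HSP90AB1 had 456 and 428 FPKM under HCl, against 620 and 629 FPKM in the control. The first was higher (0.48 ± 0.07 SE, adjusted p = 1.14e-06) and the second lower (-0.41 ± 0.06 SE, adjusted p = 5.38e-07), both by less than 2-fold. NaHCO3 on day 11 gave the opposite order, with HSP90AA1 at -0.35 ± 0.07 and HSP90AB1 at 0.38 ± 0.06 SE. The ratio of HSP90AA1 to HSP90AB1 within a library, which does not depend on the scaling of libraries, was 0.490 and 0.499 under HCl, 0.166 and 0.158 under NaHCO3, and 0.257 and 0.276 in the control on day 11. It was 0.388 and 0.411 with IWP2 alone on that day, 0.271 and 0.281 with IWP2 and NaHCO3, and 0.504 and 0.488 with 2-DG added. On day 7 the ratio was 0.28 and 0.31 under HCl, 0.23 and 0.24 under NaHCO3, and 0.28 and 0.29 in the control. Under HCl on day 7 both genes had a higher mean than the control. HSP90AA1 had 250 against 210 FPKM, and HSP90AB1 844 against 731 FPKM. The highest ratios of the 50 libraries, 0.565 and 0.603, belonged to 2-DG on day 7, and undifferentiated cells had 0.388 and 0.434. No test was run on the ratio, and the gene model of HSP90AA1 overlaps WDR20 on the opposite strand.

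The mitochondrial pair HSPD1 and HSPE1 was higher with HCl on days 5 and 11, and with IWP2 and with 2-DG on days 7 and 11, always by less than 2-fold. HSPD1 had 133 and 130 FPKM under HCl on day 11, against 91.3 and 97.7 FPKM in the control (0.56 ± 0.07 SE, adjusted p = 2.34e-08). HSPE1 had 69.1 and 63.8 FPKM under HCl, against 35.9 and 40.8 FPKM in the control (0.88 ± 0.15 SE, adjusted p = 0.000132). The libraries did not overlap for either gene. With IWP2 the log2 fold changes were 0.63 ± 0.07 on day 7 and 0.58 ± 0.07 on day 11 for HSPD1, and 0.91 ± 0.15 and 0.64 ± 0.15 SE for HSPE1. Adding NaHCO3 to IWP2 on day 7 gave -0.66 ± 0.07 for HSPD1 and -0.79 ± 0.15 SE for HSPE1, and adding 2-DG to both gave 0.67 ± 0.07 SE for HSPD1. Under HCl on day 5 the mean was 131 against 106 FPKM in the control for HSPD1, and 68.5 against 48.0 FPKM for HSPE1. Adding 2-DG on day 5 gave means of 144 against 106 FPKM for HSPD1 and 53.4 against 46.3 FPKM for HSPE1. IWP2 alone on day 5 did not raise the means, at 91.95 FPKM for HSPD1 and 47.6 FPKM for HSPE1.

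These genes lie back to back on chromosome 2, with RefSeq starts of HSPE1 105 and 539 bases from those of HSPD1, and their gene models overlap on opposite strands. The sources used here do not give the use of strand in counting, so reads of the 2 genes where they overlap cannot be told apart. The ratio of HSPE1 to HSPD1 ran from 0.240 to 0.556 over the 50 libraries, with a median of 0.425. The lowest value came from 1 NaHCO3 library of day 7, in which HSPE1 stood at 19.2 FPKM, against 33.0 FPKM in the other.

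**Figure D3:**
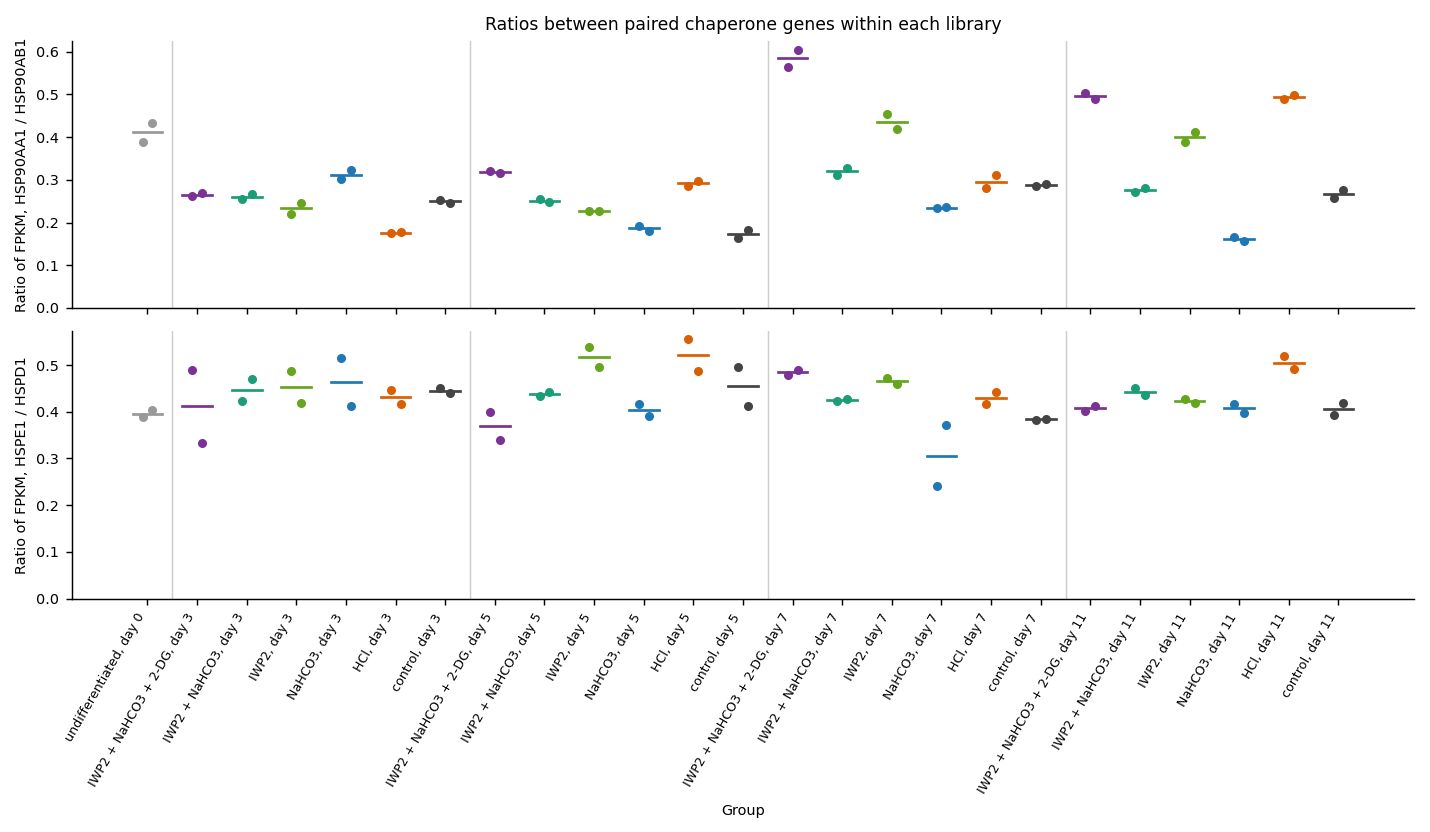
Ratio of FPKM within each library for HSP90AA1 over HSP90AB1 (upper) and HSPE1 over HSPD1 (lower), by group in the order of days, with points for libraries and lines for the mean of 2. The HSP90 ratio is highest with 2-DG on day 7, at 0.565 and 0.603, and lowest under NaHCO3 on day 11, at 0.166 and 0.158, while the mitochondrial ratio stays between 0.240 and 0.556.

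Heart muscle markers differed between the same groups. Summed over 8 cardiomyocyte markers on day 11, they reached 5938 ± 398 FPKM with 2-DG, 345 ± 10.1 FPKM with IWP2 and NaHCO3, 3922 ± 65.6 FPKM with IWP2, 76.1 ± 1.64 FPKM under NaHCO3, 5820 ± 51.0 FPKM under HCl and 702 ± 164 FPKM in the control (SD, n = 2 each). The 3 treatments with the highest sums were those with the highest HSP90 ratio and the highest HSPD1 and HSPE1 on that day. Fibroblast sums of these 3 were the lowest of that day, at 363 ± 9.45 to 681 ± 44.9 FPKM. The other treatments had 3209 ± 8.51 FPKM or more. Liver and foregut sums were lowest there too, 158 ± 11.2 to 279 ± 94.3 FPKM, against 4028 ± 611 FPKM or more. Undifferentiated cells, highest in HSPD1 and HSPE1, had a cardiomyocyte sum of 3.715 ± 0.106 FPKM. On day 5 that sum was lower under HCl, at 334 ± 8.36 FPKM, than in the control, at 519 ± 2.52 FPKM. HSPD1 and HSPE1 were higher under HCl on that day. The part of these markers in the chaperone levels was not tested.

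IWP2 alone and NaHCO3 added to IWP2 left every member under a 2-fold change. On day 3 the log2 fold changes with IWP2 lay between -0.17 and 0.07. With edgeR, 0 of 40 member tests over the 4 days were called with IWP2, where 20 had an unadjusted p under 0.05 and DESeq2 and limma also called 0. The shares of all genes called were 0.613% on day 3, 6.77% on day 5, 16.4% on day 7 and 14.9% on day 11. On day 5, 6 members were higher at an adjusted p under 0.05 (6.25% of all genes were), led by HSPH1 with 20.8 and 20.4 FPKM under IWP2, against 11.5 and 13.1 FPKM in the control (0.76 ± 0.10 SE). DNAJA1 (0.64 ± 0.11), HSPA1B (0.64 ± 0.13) and HSPA1A (0.61 ± 0.18 SE) followed.

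NaHCO3 added to IWP2 likewise gave 0 called of 40 with edgeR, DESeq2 and limma, with 17 unadjusted p under 0.05, while 3.19%, 5.81%, 16.7% and 18.5% of all genes were called on days 3, 5, 7 and 11. HSPA8, the constitutive HSP70, differed most on day 11, with 210 and 220 FPKM with NaHCO3, against 144 and 127 FPKM with IWP2 alone (0.74 ± 0.07 SE, adjusted p = 3.87e-10). It was also higher on day 7, with 270 and 272 FPKM with NaHCO3, against 183 and 190 FPKM with IWP2 alone (0.49 ± 0.07 SE). NaHCO3 without IWP2 went with lower HSPA8 relative to the control, by -0.35 ± 0.07 on day 7 and -0.31 ± 0.07 SE on day 11. Whether these effects of NaHCO3 differ was not tested.

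No member was called under 2-DG, while chaperones of the endoplasmic reticulum rose. With edgeR 0 of 40 member tests over the 4 days were called (DESeq2 and limma also 0), although 25 had an unadjusted p under 0.05. The shares of all genes called were 3.59% on day 3, 16.5% on day 5, 16.3% on day 7 and 21.1% on day 11. HSPE1 on day 7 came nearest, with 81.9 and 87.7 FPKM with 2-DG, against 48.1 and 50.9 FPKM without it (0.85 ± 0.15 SE, adjusted p = 0.000174). HSPA8 differed most of the members on day 3, with 417 and 412 FPKM with 2-DG, against 276 and 271 FPKM without it (0.75 ± 0.10 SE, adjusted p = 3.55e-05). HSP90AA1 on day 7 had 336 and 360 FPKM with 2-DG, against 222 and 234 FPKM without it (0.69 ± 0.07 SE, adjusted p = 1.6e-09). The groups did not overlap in any of these cases. HSPE1 on day 3 had 105 and 61.9 FPKM with 2-DG, against 73.1 and 88.4 FPKM without it, and the groups overlapped.

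The endoplasmic reticulum has its own HSP70, HSPA5, and its own HSP90 and J-domain proteins, which are induced when proteins misfold there rather than in the cytosol. Of 10 such chaperones listed, 8 rose with 2-DG on day 3 (median log2 fold change 1.17), all 10 on day 5 (median 2.43) and 1 on day 7, and the median on day 11 was -0.13. The shares of all genes called upward were 1.5% on day 3, 7.04% on day 5 and 7.1% on day 7, so that the count on day 7 was near its share. HSPA5 had 862 ± 42.1 FPKM with 2-DG and 154 ± 1.72 FPKM without it on day 5 (SD, n = 2 each), a rise of 2.66 ± 0.10 SE. HSPA8, its cytosolic relative, was 0.48 ± 0.10 SE higher in the same libraries. Over the 10 members the median was 0.22 on day 3, 0.37 on day 5, 0.27 on day 7 and 0.46 on day 11. The mitochondrial HSP70 gene HSPA9 rose by 1.69 ± 0.09 and the protease gene LONP1 by 2.04 ± 0.12 SE on day 5, while HSPD1 was 0.62 ± 0.12 SE higher. The difference between the gene groups was described and not tested. The cultures with and without 2-DG also differed in cell-type markers. On day 5 cardiomyocyte markers summed to 877 ± 73.4 FPKM with it and 505 ± 12.5 FPKM without it. Fibroblast markers gave 534 ± 42.8 and 1736 ± 68.6 FPKM. Liver and foregut markers gave 35.5 ± 6.3 and 264 ± 0.177 FPKM. On day 7 cardiomyocyte markers gave 3811 ± 43.6 and 593 ± 37.0 FPKM (SD, n = 2 each). Their part in the chaperone levels was not tested.

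**Figure D4:**
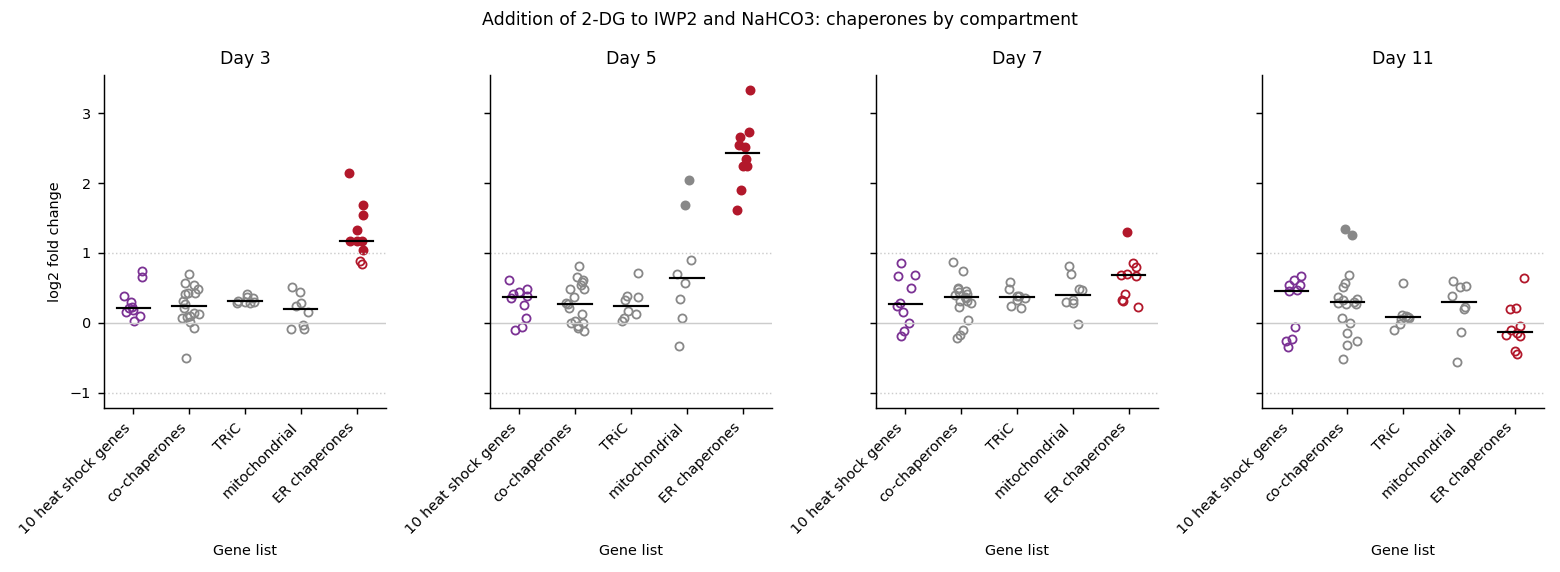
Log2 fold change on addition of 2-DG to IWP2 and NaHCO3 (vertical axis) for the 10 heat shock genes and for 4 lists of other chaperones, by day, with 1 point per gene, filled where called, and a line at the median. The heat shock genes stay under 1 on every day, while the median of the endoplasmic reticulum chaperones is 1.17 on day 3, 2.43 on day 5, 0.68 on day 7 and -0.13 on day 11.

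The small heat shock genes CRYAB and HSPB1, outside the 10, rose late with 2-DG. On day 11 CRYAB, a small heat shock protein abundant in heart muscle, had 44.3 ± 5.47 FPKM with 2-DG and 5.08 ± 0.120 FPKM without it, and HSPB1 432 ± 17.9 FPKM with 2-DG and 121 ± 5.59 FPKM without it (SD, n = 2 each). HSPA1A and HSPA1B, the inducible members, were 0.46 ± 0.13 and 0.47 ± 0.15 SE higher on that day. Their 2-DG libraries lay apart, at 8.04 and 12.9 FPKM for HSPA1A and 4.47 and 7.35 FPKM for HSPA1B, against 7.59 and 7.68 FPKM and 4.02 and 4.54 FPKM without 2-DG.

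The largest changes of the members came with time in culture. HSPD1 had 91.3 and 97.7 FPKM in the control of day 11, against 371 and 387 FPKM in undifferentiated cells, and HSP90AA1 had 159 and 174 FPKM in the control of day 11, against 550 and 600 FPKM in undifferentiated cells. HSPE1 had 35.9 and 40.8 FPKM on day 11, against 144 and 156 FPKM in undifferentiated cells. The day 11 libraries were far below the undifferentiated ones for all 3 genes. HSPD1 fell 4.30-fold, HSPE1 4.19-fold, HSP90AA1 3.71-fold, HSPA1B 3.38-fold, HSPH1 2.77-fold, HSPA8 2.41-fold and HSP90AB1 2.41-fold. For HSPA1B the log2 fold change was -1.75 alone and -1.07 when its counts were summed with those of HSPA1A. These were 7 of 10 members called downward, with 16.6% of all genes, and their adjusted p ran from 4.09e-22 for HSPD1 to 2.83e-09 for HSPE1.

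By day 7 the control had fallen relative to day 0 in 6 members (15.6% of all genes were called downward), namely HSP90AA1, HSP90AB1, HSPH1, HSPD1, HSPE1 and HSPA1B. Calls of HSP90AB1 (-1.11 ± 0.06 SE), HSPH1 (-1.06 ± 0.08 SE) and HSPA1B (-1.09 ± 0.13 SE) lay close to the 2-fold limit and were lost under other scalings. Between day 7 and day 11 the control gave 0 called members with edgeR (DESeq2 and limma also 0), although 9 of 10 were lower at an unadjusted and at an adjusted p under 0.05, where 15.6% of all genes were, and 10.4% of all genes were called in either direction. With IWP2 on day 11, 7 members fell relative to day 0 (17.5% of all genes did), the same 7 as in the control, and both comparisons use the day 0 libraries. The call of HSPA1B with IWP2 was lost when it was summed with HSPA1A (-0.97). On days 3 and 5, HSP90AA1 was the 1 member called in the control (7.74% of all genes were called downward), with 120 and 131 FPKM on day 5, against 264 and 259 FPKM on day 3 (-1.01 ± 0.10 SE). That call was lost without replicate 1 of the control on day 5, where the log2 fold change was -0.95.

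DNAJB1, DNAJA1 and HSPA1A did not pass the test on day 7 relative to day 0. DNAJB1, the J-domain protein that serves HSP70 under stress, had 30.8 and 30.7 FPKM in the control of day 7, against 26.9 and 27.7 FPKM in undifferentiated cells (log2 fold change 0.004, 95% interval -0.15 to 0.16). DNAJA1 had 106 and 114 FPKM, against 93.8 and 98.2 FPKM in undifferentiated cells (0.03, -0.12 to 0.18), and HSPA1A 12.0 and 12.4 FPKM, against 12.6 and 10.8 FPKM in undifferentiated cells (-0.11, -0.36 to 0.15). For DNAJB1 and DNAJA1 the FPKM, which are scaled by library totals, were higher on day 7, while counts scaled by TMM were level. The ratio of HSPA1A to HSPA1B was 0.755 and 0.728 in undifferentiated cells, the lowest of the 50 libraries, against a median of 1.49. Because the genes are near-identical, this balance depends on how the counting assigned reads.

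Other folding genes of the cytosol fell with time as well. All 8 subunits of the cytosolic chaperonin TRiC were called downward in the control of day 11 relative to day 0 (median -1.21). Of 18 co-chaperones, 9 were (median -1.04), against 16.6% of all genes. HSPA4, a relative of HSPH1, was among these co-chaperones, at -1.89 ± 0.06 SE. CCT5, a TRiC subunit, had 32.0 ± 1.11 FPKM on day 11 and 107 ± 1.23 FPKM in undifferentiated cells (SD, n = 2 each). The endoplasmic reticulum chaperones had a median of -0.18, and DNAJB9, 1 of that list, rose by 1.53 ± 0.10 SE. Pluripotency markers summed to 49.4 ± 4.0 FPKM in the control of day 11 and 1946 ± 11.0 FPKM in undifferentiated cells (SD, n = 2 each), and their part in the chaperone levels was not tested.

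**Figure D5:**
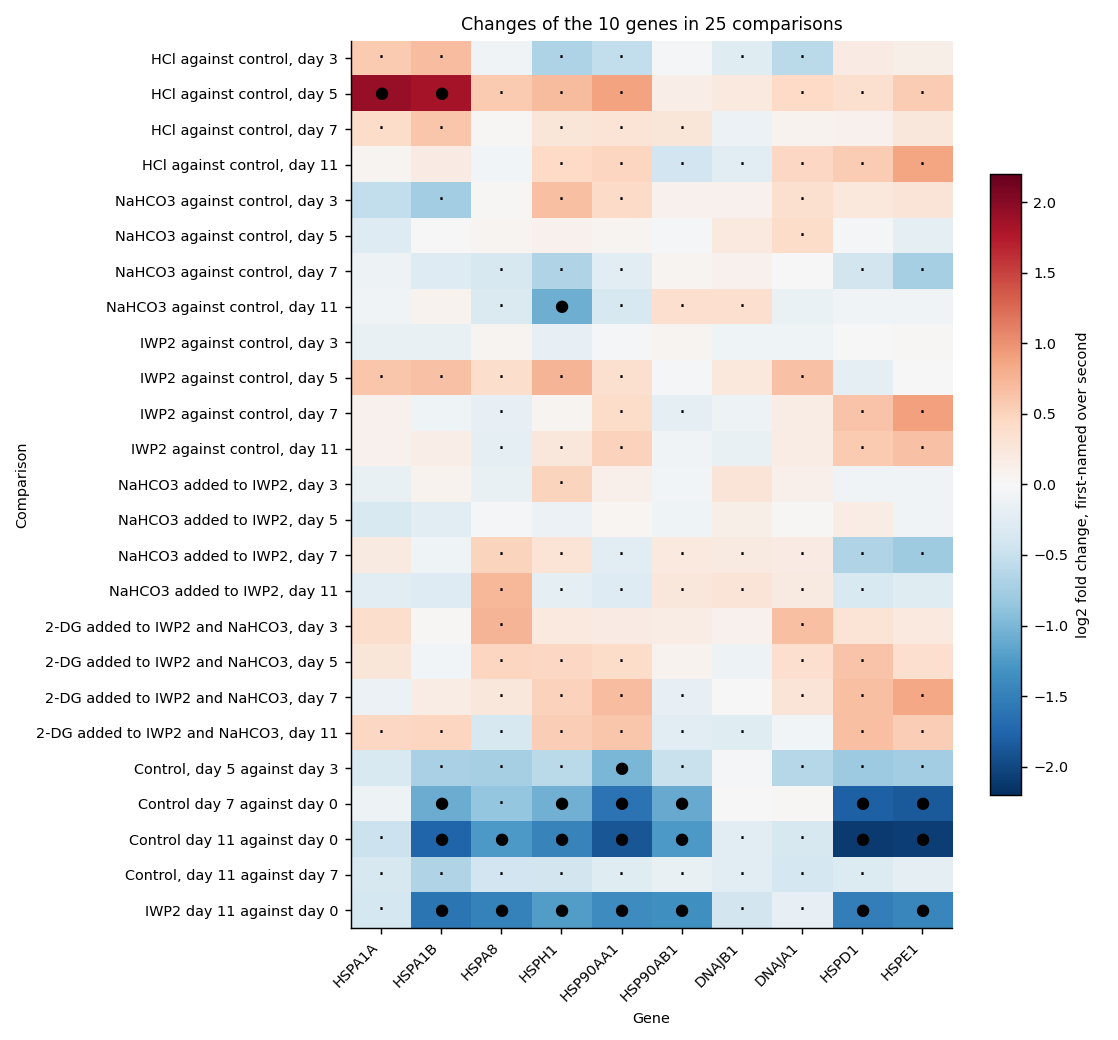
Log2 fold change (colour) of the 10 genes (columns) in 25 comparisons (rows), the first-named group over the second, with large dots for called changes and small dots for an adjusted p under 0.05 with less than a 2-fold change. Of 200 member tests between treatments, 3 are called and 96 have an adjusted p under 0.05, while 21 of 50 tests over time are called. Shares of all genes called, per comparison, were 0.613% to 21.1% between treatments and 10.4% to 40% over time. By the adjusted p alone the share between treatments was 1.17% to 52.7%. Comparisons with day 0 share its libraries.

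Genes with a similar course were sought among the 16157 genes tested in both tables, by correlation over group means with the average profile of the 8 cytosolic members. The nearest was NUDC, a co-chaperone of HSP90, with r of 0.95 over the 12 groups of days 3 and 5 and 0.96 over the 13 other groups. ZNF93, a zinc finger gene, followed at 0.92 and 0.94, WDR62, a centrosome protein, at 0.91 and 0.91, AUNIP at 0.92 and 0.90, and CENPJ, a centriole protein, at 0.89 and 0.91. Members differed in how closely they followed the average that 8 of them made up. HSPA8 (0.88 and 0.93), HSPH1 (0.82 and 0.83) and HSP90AA1 (0.88 and 0.81) lay nearest, and DNAJA1 had 0.77 and 0.67. HSP90AB1 had 0.54 and 0.62 and DNAJB1 0.35 and 0.44. The inducible HSPA1A (0.37 and 0.81) and HSPA1B (0.40 and 0.88) followed it loosely on days 3 and 5. HSPD1 and HSPE1, outside the average, had 0.61 and 0.70, and 0.64 and 0.63. The points share the day of culture, and the values describe these libraries only.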

How the data were processed

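The authors deposited, for 57905 genes, a column of counts and a column of FPKM per library, in 1 table for days 3 and 5 and 1 for days 7, 11 and 0. Per the submitters' processing notes, cutadapt 1.9.1, HISAT2 2.0.1 and HTSeq 0.6.1 were used with GRCh37. Per the labels' protocols, total RNA was extracted with RNAiso Plus and 1 µg of it went into the VAHTS Universal V8 kit. The use of strand in counting is not given in the sources used here. The deposited FPKM equal the counts per exonic length and library total (median ratio 1).

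Columns were matched to samples by title. A gene was tested in a table if 2 or more of its libraries had 1 FPKM or more, which kept 17286 and 18451 genes with 99.57% and 99.63% of the counts. Deposited counts were scaled by TMM and fitted in edgeR 4.0.16 (R 4.3.3) with a robust quasi-likelihood model, 1 mean per group over the whole table. P-values were adjusted by Benjamini-Hochberg over all genes of a comparison. Genes with an adjusted p under 0.05 and a log2 fold change of 1 or more in either direction were called. SE is the log2 fold change over the square root of F. Tests were run within a table, and levels set beside each other across tables are FPKM. The biological coefficient of variation was 0.1186 and 0.0669. On simulated data, 52% of genes changed 2-fold and 96% of those changed 3-fold were called for HCl against control on day 3 (17286 genes), and 50% and 100% on day 11 (18451 genes). The shares at 2-fold follow from the fold limit itself.

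The 10 members and the 12 comparison lists were chosen with earlier results of these data known. The rule for named genes took all 10 members, of other lists up to 4 called genes with the largest change per comparison, and the 5 genes most like the members. Genes outside it, such as HSF1, HSF2 and BAG3 on day 5, were chosen after their values were seen. The floor of 3 counts covers counting error only. No replicate pair agreed within sampling noise (chi-square per degree of freedom 1.93 to 110). Alternatives were RLE scaling, library totals, DESeq2 1.42.0, limma 3.58.1 on log2(FPKM + 1) and log2(FPKM + 0.1), no filter, the compared days alone, a replicate block, each replicate left out, both 2-DG libraries of day 3 left out, the adjusted p alone, and HSPA1A and HSPA1B summed. No columns of other samples were present.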

Additional observations from a re-analysis of the deposited data

Results flagged for a closer look

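For 5 members the effect of HCl against the control on day 5 differed from that on day 3, by the test of the difference itself (edgeR's quasi-likelihood test, adjusted over 17286 genes). The log2 difference was 1.43 for HSP90AA1, 1.38 for HSPH1, 1.34 for HSPA1A, 1.16 for HSPA1B and 1.04 for DNAJA1, with adjusted p of 2.59e-07, 2.23e-07, 0.000407, 6.5e-05 and 5.03e-05 in that order. HSP90AA1, HSPH1 and DNAJA1 lay on opposite sides of the control on these days in both HCl libraries, while HSPA1A and HSPA1B lay above it on both. These were the calls among 100 such tests on members, and each was kept under all of its alternatives.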

How the results depend on the processing

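Of the 200 treatment tests on members, 2 were called for HCl, 1 for NaHCO3 and 0 each for IWP2, NaHCO3 added to IWP2 and 2-DG, and 21 of 50 tests were called over time and 5 of 100 between days. Shares of all genes called, per comparison, were 0.613% to 21.1% for treatments, 10.4% to 40% over time and 4.52% to 17.1% between days. By the adjusted p alone the member counts were 26, 15, 16, 16, 23, 44 and 27 in the same order. The shares of all genes by that rule were 1.17% to 52.7%, 35.3% to 70.6% and 7.21% to 41.4%. Leaving out each replicate in turn gave member counts of 2 to 2, 1 to 2, 0 to 0, 0 to 0, 0 to 0, 20 to 21 and 5 to 6. With a replicate block within each day the counts were 2, 1, 0, 0, 0, 21 and 5, and limma on log2(FPKM + 1) called 18 over time. Members' own tests stayed on the same side of the threshold 4732 times, lost the call 13 times and gained it 4 times. In 1 test the sign changed with an adjusted p under 0.05 in the main or the alternative fit. Sign changes without such a p are counted among the 4732. The correlation of replicate differences between compared groups ran from -0.044 to 0.071. Every comparison has only 2 pairs, so this check cannot tell whether replicate numbers pair the samples. HSPE1 with 2-DG on day 3 changed sign without replicate 1 of that group, -0.33 without it and 0.61 without replicate 2, against 0.22 with both, where the cause was not tested. With library totals the calls of HSP90AB1, HSPH1 and HSPA1B on day 7 against day 0 were lost, as with limma at both pseudocounts, that of HSPH1 also without the filter, and those of HSPA1B on day 7 and, with IWP2, on day 11 were lost when it was summed with HSPA1A. Library totals moved the median of all genes by over 0.1 on the log2 scale in 6 comparisons and 1 difference of effects between days, from -0.2 for NaHCO3 on day 11 to 0.169 for the control of day 7 against day 0. In the simulated data, genes changed by exactly the 2-fold limit were called 50 to 52% of the time and those changed 3-fold 96 to 100%. An estimate falls on either side of its own limit about equally often, so the first share follows from the rule. Only genes with a mean of 50 counts or more were changed. The groups were otherwise alike and the spread came from the fit, so the second share need not hold for the real groups.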

Other observations

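The small heat shock genes, whose proteins hold unfolding proteins without ATP, also differed between treatments on day 7. HSPB1 rose under HCl, with 142 ± 15.5 FPKM under HCl and 61.6 ± 3.34 FPKM in the control (SD, n = 2 each, as below). It rose with IWP2 too, with 245 ± 3.68 FPKM against the same control. It fell on addition of NaHCO3 to IWP2, with 107 ± 6.06 FPKM with NaHCO3 and 245 ± 3.68 FPKM with IWP2 alone. CRYAB followed HSPB1 with IWP2, at 7.16 ± 0.594 FPKM with IWP2 and 2.19 ± 0.269 FPKM in the control, but fell under HCl, at 0.855 ± 0.643 FPKM under HCl against that control. CRYAB under HCl thus lay near the filter on low values of 1 FPKM, and its libraries there differed widely. The adjusted p of these 5 changes, by edgeR's quasi-likelihood test, ran from 9.37e-16 for HSPB1 with IWP2 to 0.000703 for CRYAB under HCl. Cardiomyocyte markers summed on day 7 to 593 ± 37.0 FPKM with IWP2 and NaHCO3, 5903 ± 359 FPKM with IWP2, 1179 ± 268 FPKM under HCl and 440 ± 40.0 FPKM in the control, and their part in these levels was not tested.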
